A study of Mus musculus with 3 samples.

Results

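Id1, Id2 and Id3 encode small helix-loop-helix proteins that dimerise but lack the basic region through which related factors hold DNA. They were taken by symbol from the deposited gene list, where they were 3 of 32285 genes, and all 3 had UMIs (unique molecular identifiers, each standing for 1 captured transcript) in every library. Bone marrow-derived macrophages (BMDMs) of female C3H/HeN mice aged 6 to 8 weeks were grown in medium conditioned by L929 cells. They were profiled with the 10x Genomics 3′ single-cell assay. The study's general culture method pools marrow of several mice, while its single-cell method describes BMDMs of several mice treated independently. The Ctrl library (titled UI) held BMDMs kept with PBS alone and, per the study's methods, collected at 4 h. The LP1 and LP4 libraries held BMDMs given 1 µg/mL of purified Borrelia burgdorferi lipoproteins (BbLP) for 1 h and 4 h. Ctrl was thus matched in time to LP4 but not to LP1, so lipoprotein and time cannot be told apart in LP1 over Ctrl. Cells of independent replicates of a condition had been pooled before capture, so each condition was 1 library, no difference between conditions could be tested, and every interval below is a 95% interval that covers counting error only.

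Id proteins pair with the E proteins, the broadly expressed basic helix-loop-helix (bHLH) factors encoded by Tcf3, Tcf4 and Tcf12, and keep them from binding the E-box. Id genes are classic targets of bone morphogenetic protein (BMP) signalling through the SMADs, and Id3 was also first described as an early gene of growth factor stimulation. Among myeloid cells, Id2 is needed for the development of several dendritic cell lineages and Id3 for the identity of liver macrophages. The fourth family member, Id4, is best known from the nervous system.

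Kept cells numbered 6071 for Ctrl, 5065 for LP1 and 4670 for LP4, or 15806 together. That total is above the number of cells the study states. Median depth per cell was 5133, 9343 and 11784 UMIs in that order, so shares of cells with a UMI are given after each cell was thinned to 2000 UMIs. Between 3 and 9 kept barcodes were shared by any pair of libraries. The summed level of 10 macrophage markers lay between 11809 and 12331 CPM (UMIs per 1000000 UMIs) in the 3 libraries, and none of the 10 was at 0. The 5 markers of T and NK cells summed to at most 0.196 CPM, with 2 or 3 of them at 0 in each library, and the 5 of B cells to at most 4.62 CPM, with 1 at 0. By library in the order Ctrl, LP1, LP4, neutrophil markers summed to 541, 447 and 701 CPM and stromal markers to 4.96, 6.67 and 21.2 CPM.

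The RefSeq promoter table for GRCm38.p6 held 2 of the 3 members, Id2 and Id3, and a 30-base stretch of each is shown because the levels of this pair went apart between conditions. In the 250 bases before the RefSeq start, 5 motifs were searched on both strands. Capitals mark an E-box (letters CANNTG) in Id2, 196 to 191 bases before the start, and in Id3 a SMAD box (CAGAC) that overlaps the reverse strand of a cyclic AMP response element half-site (TGACG), together 170 to 163 bases before the start.
Id2, chr12:25096271-25096300, minus strand: aatttgccacccCAGCTGggctctcgcccg
Id3, chr4:136143641-136143670, plus strand: gctgtcctcggCGTCAGACcagcctaagga
GENCODE vM21 starts a longer transcript of each gene further upstream, so the Id3 stretch lies in the first exon and 5′ untranslated region of its transcript Id3-201, and the Id2 stretch lies in an intron of Id2-202. An E-box stood in 66.2% of all promoters of this length, a SMAD box in 42.2% and the half-site in 17.9%. Id2 also held the GC-rich SMAD element GGCGCC, found in 9.65% of promoters, and Id3 held a further SMAD box on the reverse strand. The EGR motif GCGNGGGCG, found in 4.74% of promoters, was in neither stretch of 250 bases. These are matches of letters, and nothing was measured at either site.

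Id3 was the member whose level differed most between the libraries. It was high in Ctrl, higher in LP1 and close to gone in LP4. Id1, from a low base, was also higher in LP1 but was highest in LP4, and Id2, by far the most abundant in all 3 libraries, differed little.

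Id3 (ENSMUSG00000007872, chr4:136143497-136145755, plus strand, 3 exons in Id3-201) had 5011, 12289 and 894 UMIs in Ctrl, LP1 and LP4. These made 140 CPM (95% interval 137 to 144), 234 CPM (230 to 238) and 14.6 CPM (13.6 to 15.5). The 3 intervals did not overlap, with LP4 far below the others. On the log2 scale LP1 was 0.74 above Ctrl (0.69 to 0.79) and LP4 was at -3.27 against Ctrl (-3.37 to -3.17), a 9.64-fold lower level. Against LP1, the level in LP4 was 16.1-fold lower. Few genes differed as much. Of 8019 genes with at least 10 CPM in Ctrl or LP4, 35 had a lower LP4 over Ctrl ratio than Id3, and of 7956 such genes in LP4 and LP1, 12 had a lower LP4 over LP1 ratio. In LP1 over Ctrl, Id3 stood above 97.6% of 7747 genes.

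Id1 (ENSMUSG00000042745, chr2:152736251-152737410, plus strand, 2 exons) had 314, 621 and 1380 UMIs in Ctrl, LP1 and LP4. That made 8.80 CPM (7.85 to 9.83), 11.8 CPM (10.9 to 12.8) and 22.5 CPM (21.3 to 23.7). The level was lowest in Ctrl and highest in LP4, with no overlap of the intervals. LP4 was 1.35 above Ctrl on the log2 scale (1.18 to 1.53), which is 2.55-fold, and LP1 was 0.43 above it (0.23 to 0.63). Because Id3 was so low in LP4, Id1 exceeded it there, while in Ctrl and LP1 Id1 was the scarcest of the 3.

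Id2 (ENSMUSG00000020644, chr12:25093799-25097140, minus strand, 3 exons in Id2-201) had 13289, 22601 and 21503 UMIs. These made 372 CPM (366 to 379), 431 CPM (425 to 436) and 350.2 CPM (346 to 355). LP1 was the highest of the 3, at 0.21 above Ctrl on the log2 scale (0.18 to 0.24). LP4 was at -0.09 against Ctrl (-0.12 to -0.06), a difference that turned to 0.12 when the libraries were scaled by the median of ratios over genes. For LP4 over Ctrl, Id2 stood in the middle of all genes, above 49.1% of them. Id4 (ENSMUSG00000021379) had 0, 3 and 1 UMIs, and the 3 of LP1 were in 1 cell. No count was above the floor of 3 counts used here, so Id4 is given no ratio.

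**Figure D1:**
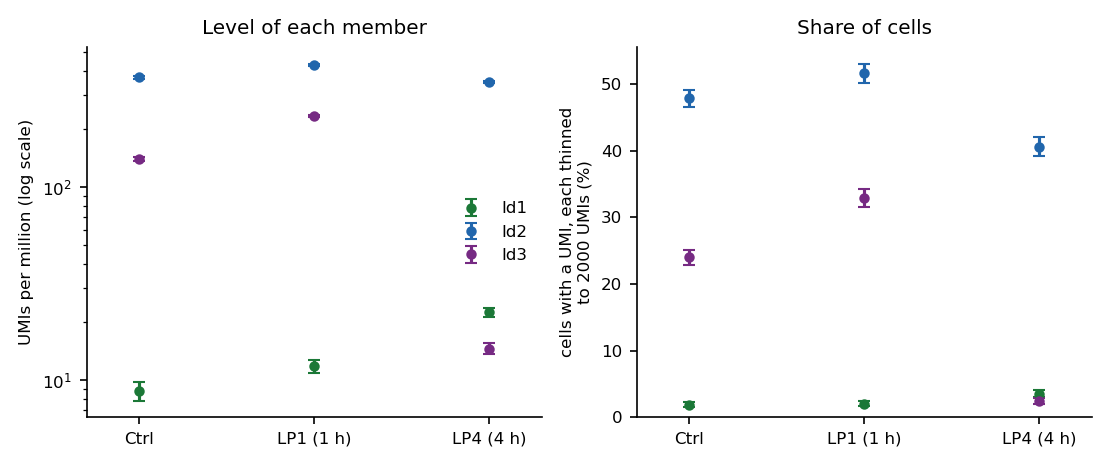
Left, CPM of Id1, Id2 and Id3 in each library on a log axis; right, percent of cells with a UMI after thinning to 2000 UMIs per cell. Points are 1 library each and bars are 95% counting intervals. Id3 goes from 140 CPM in Ctrl and 234 in LP1 to 14.6 in LP4, below Id1 at 22.5.

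Read against all genes, 0 of 3 members lay at or past 1 on the log2 scale in LP1 over Ctrl, where 0.697% of genes were higher and 0.465% lower by that much. In LP4 over Ctrl 1 member was higher (Id1) and 1 lower (Id3), where 10.6% of genes were higher and 9.91% lower. In LP4 over LP1 1 member was lower (Id3), where 8.75% of genes were higher and 7.55% lower. The median gene stood at -0.02, -0.07 and -0.06 in these comparisons. Scaling by the median of ratios added 0.21 to every LP4 over Ctrl ratio, 0.13 to every LP4 over LP1 ratio and 0.08 to every LP1 over Ctrl ratio. Under it the higher share of the genes past 1 went from 51.7% to 67.5% in LP4 over Ctrl, from 53.7% to 64.0% in LP4 over LP1 and from 60.0% to 77.0% in LP1 over Ctrl. Id1 and Id3 kept their directions under every scaling tried. The median of the 3 members was 0.43, -0.09 and -0.30 in the 3 comparisons.

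**Figure D2:**
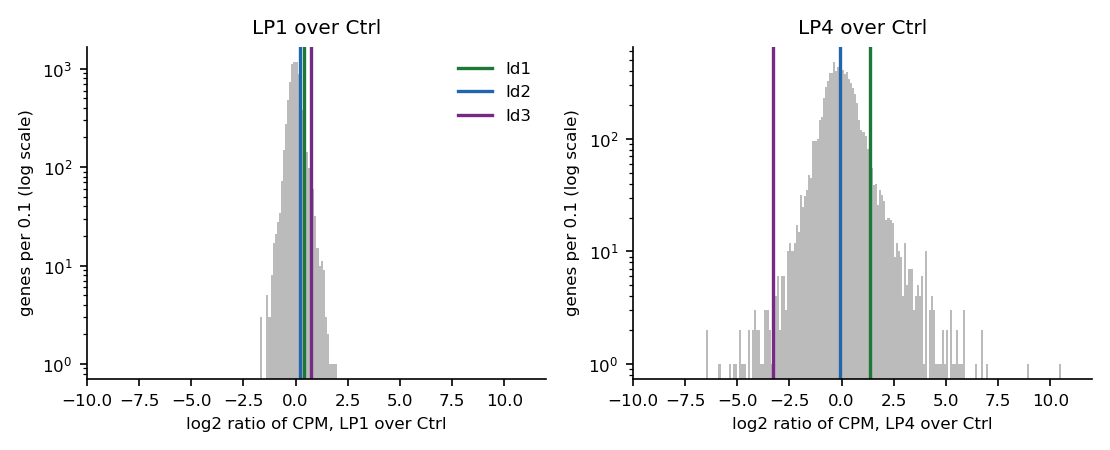
Histograms of the log2 ratio of CPM over all genes with at least 10 CPM in 1 of the libraries compared, LP1 over Ctrl (7747 genes) and LP4 over Ctrl (8019 genes), with the number of genes on a log axis. Vertical lines mark the members. Id3 lies at 0.74 in the upper edge on the left and at -3.27 in the lower tail on the right, Id1 at 1.35 on the right, and Id2 at -0.09, which becomes 0.12 under median-of-ratios scaling.

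At matched depth the share of cells with a UMI followed the order of the levels, although the Id1 intervals of Ctrl and LP1 overlapped. After thinning, Id3 was seen in 24.0% (22.9 to 25.1), 32.9% (31.6 to 34.3) and 2.44% (2.02 to 2.93) of the cells of Ctrl, LP1 and LP4. Before thinning these shares were 42.8%, 63.2% and 11.7%. Id2 was seen in 47.9%, 51.6% and 40.6% of thinned cells, and in 74.7%, 89.3% and 79.5% before thinning. The LP4 share of Id2 was therefore below that of Ctrl at matched depth and above it at the depth sequenced. Id1 was seen in 1.87% (1.54 to 2.24), 2.02% (1.65 to 2.45) and 3.57% (3.05 to 4.14) of thinned cells, and in 4.38%, 7.96% and 12.7% before thinning. Free RNA in droplets gives UMIs to cells that do not make a transcript. As a gauge of it, S100a8, a neutrophil gene, had a UMI in 4.21%, 2.57% and 4.39% of thinned macrophage-like cells (median depth 5202, 9368 and 11862 UMIs). Thinned neutrophil-like cells, with median depths of 3947, 6261 and 9303 UMIs, had an Id3 UMI in 0 of 21, 0 of 21 and 0 of 29 cells, which allows shares of up to 16.1%, 16.1% and 11.9%. Another neutrophil gene, S100a9, had a UMI in only 0.275%, 0.121% and 0.399% of thinned macrophage-like cells, so the gauge depends on the gene. The shares of Id1 in all cells, and of Id3 in LP4, were no higher than that of S100a8 but above that of S100a9. Neither is a matched gauge, because the gauge was not scaled to level and both genes were far more abundant. In thinned LP4 cells without an Id1 UMI, S100a8 stood at 253 CPM and S100a9 at 364 CPM. In all thinned LP4 cells, Id1 stood at 22.8 CPM and Id3 at 13.3 CPM. How much of these Id1 and Id3 shares was free RNA was therefore not settled. They are not read as shares of cells that make the gene.

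Cells were also described by which Id genes they held together. At 2000 UMIs per cell, no Id UMI at all was found in 38.5%, 31.8% and 56.3% of the cells of Ctrl, LP1 and LP4. Cells with both Id2 and Id3 made up 10.9%, 16.7% and 1.06%. In Ctrl, Id2 was seen in 46.0% of cells with Id3 (43.4 to 48.7) and in 48.5% of cells without it (47.0 to 49.9), and in LP1 in 51.8% (49.4 to 54.2) and 51.5% (49.8 to 53.2). These intervals overlap, so no difference in Id2 between cells with and without Id3 was detectable at this depth. In LP4, Id1 was seen in 4.31% of cells with Id2 (3.44 to 5.33) and 3.06% of those without (2.45 to 3.77).

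How unevenly the UMIs lay over cells also differed. For Id2 the variance over the mean of thinned counts was 1.30, 1.41 and 1.90 in the 3 libraries, and the tenth of cells with most Id2 held 38.2%, 38.1% and 47.2% of its UMIs. Unthinned, the richest cell had 17, 31 and 92 Id2 UMIs. So LP4, with the lowest Id2 level in CPM but the greatest depth per cell, had the cells with the most Id2 UMIs. In LP4, 60 cells (1.28%) with at least 25 Id2 UMIs held 8.98% of the total, against 4 cells in LP1 and 0 in Ctrl. Their median depth was 22125 UMIs, well above that of the library. For Id1 the richest cells were likewise in LP4, where its mean was the highest too. At least 5 Id1 UMIs were found in 0 cells of Ctrl, 10 of LP1 and 69 of LP4, and these 69 cells (1.48%) held 35.1% of the Id1 UMIs of LP4. Id3 was the opposite, with 976 such cells in LP1 (19.3%, holding 62.1% of its UMIs), 135 in Ctrl and 17 in LP4. These counts of cells were unthinned and the libraries differed in depth, so they are not compared at matched depth. After thinning, the richest cell had 2, 4 and 9 Id1 UMIs, 7, 9 and 12 Id2 UMIs, and 7, 13 and 4 Id3 UMIs in Ctrl, LP1 and LP4.

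The kept cells were clustered without the Id genes and on genes that differed by less than 1.5 times between libraries, which gave 8 clusters. Clusters A to E were macrophage-like, of which A was led by Egr3, Nr4a3, Apoe and Cd86, B by Ccnd1 and Fgf13, C by Olr1 and Ch25h, D by Mgll, Ctsk and Mmp9, and E by histone and mitosis genes such as Hist1h1b and Ccna2. Cluster F was dendritic cell-like (211 cells) and G neutrophil-like (86 cells). Cluster H (69 cells) was led by Mgp, Col1a2 and Col3a1 but was mixed. At a finer clustering 13 of its cells formed 1 cluster, which held at least 93.8% of the Col1a2 UMIs of each library, and 54 fell in a macrophage-like cluster led by Ddit3 and Snhg12. Clusters A to F had at least 50 cells in every library and are compared.

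Id3 was highest in cluster A. In Ctrl it stood at 322 CPM there and at 253 in F, against 104 in B, 101 in E, 95.8 in C and 37.8 in D. In LP1 the order began and ended the same, with 562 CPM in A, 300.2 in F and 89.0 in D. Cluster A held 48.5% of the Id3 UMIs of Ctrl in 30.2% of its cells, and 45.9% of those of LP1 in 26.6% of its cells. In LP4 the gap was gone, with 13.7 CPM in A, 17.9 in B, 14.2 in C, 6.53 in D, 15.1 in E and 8.77 in F. All 6 clusters were higher in LP1 than Ctrl (0.25 in F to 1.24 in D on the log2 scale, the interval of F reaching -0.09) and all 6 were lower in LP4 (-4.85 in F to -2.53 in D). Within A the LP4 over Ctrl ratio was -4.55 (-4.78 to -4.34), against -2.75 (-2.94 to -2.56) in C. As the LP4 levels of A and C were close, these ratios differ mainly by their Ctrl levels. The ratio of F rested on 7 UMIs in 64 LP4 cells and was -3.67 in the finer dendritic cell-like cluster. The cells of A parted by library at the finer clustering, where 1624 of 1833 Ctrl cells and 1185 of 1349 LP1 cells but 227 of 1401 LP4 cells stayed in 1 cluster led by Egr3, and 992 of the LP4 cells fell in another led by Gbp4. Id3 in LP4 over Ctrl was -3.88 (-4.31 to -3.48) in the former and -3.92 (-4.41 to -3.42) in the latter.

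In the mixed cluster H the Id3 level was 104, 316 and 175 CPM, from 18, 70 and 65 UMIs in 26, 21 and 22 cells of Ctrl, LP1 and LP4. LP4 over Ctrl was 0.75 there (-0.02 to 1.59), and in LP4 this 0.471% of cells held 7.27% of all Id3 UMIs. The 13 cells with collagen genes (3, 3 and 7) had 4, 30 and 45 Id3 UMIs, which is 117 CPM (31.8 to 299), 517 CPM (349 to 738) and 332 CPM (242 to 444). The finer macrophage-like cluster that took most of the rest had 95.1, 224 and 93.3 CPM from 23, 20 and 16 cells, with LP4 over Ctrl at -0.03 (-1.07 to 1.08), so a level as far below Ctrl as in clusters A to F was seen in neither kind of cell. These values rest on few cells. In LP4, 11 of the 22 cells of H held Id3, and 4 of them held 32, 8, 6 and 6 of the 65 UMIs. Without the cell with 32, which was 1 of the 13, a choice made after seeing the data, LP4 stood at 94.8 CPM in H, -0.13 against Ctrl with an interval that included 0. Outside clusters G and H the LP4 over Ctrl ratio of Id3 was -3.37.

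Id1 was highest in the mitotic cluster E of the compared clusters, at 12.8, 21.4 and 38.0 CPM in Ctrl, LP1 and LP4, and low in A, at 5.03, 7.87 and 9.07 CPM. LP4 was above Ctrl in all 6 clusters, from 0.85 in A to 1.71 in C. At a finer clustering 1 of 7 clusters, led by Fabp4 and Hal, went the other way at -0.24 (-0.97 to 0.53). In F the Ctrl count was 0, so its ratio against 3 counts, 1.12, is a lower bound. In LP1 the ratio ran from -0.24 in D to 0.74 in E, and the intervals of C and D included 0. At the finer clustering 2 of 7 compared clusters were lower in LP1 than Ctrl. The cluster led by Fabp4 and Hal stood at -1.07 (-1.95 to -0.19), from 23 UMIs in LP1 and 25 in Ctrl. The neutrophil-like cluster G had the highest Id1 level of any cluster in LP4, 193 CPM from 49 UMIs in 29 cells, against 28.7 CPM from 3 UMIs in Ctrl and 78.1 CPM from 11 UMIs in LP1. These cells held 3.55% of the Id1 UMIs of LP4, and without clusters G and H the LP4 over Ctrl ratio of Id1 was 1.35.

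Id2 was the most even of the members. Across clusters A to F it lay between 320 CPM (E) and 447 CPM (F) in Ctrl, between 398 (E) and 516 (D) in LP1, and between 252 (B) and 484 (F) in LP4. LP1 was above Ctrl in 6 of 6 clusters, by 0.13 to 0.31 on the log2 scale, although the interval in F included 0. In LP4 the clusters parted, with B at -0.54 (-0.62 to -0.46) and C at -0.23 (-0.28 to -0.17) against Ctrl, and A, D, E and F between 0.11 and 0.13, the interval of F including 0. At the finer clustering Id2 was higher in LP4 in 2 of 7 compared clusters and lower in 5. Neutrophil-like cells had the least, 95.6 CPM in Ctrl.

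**Figure D3:**
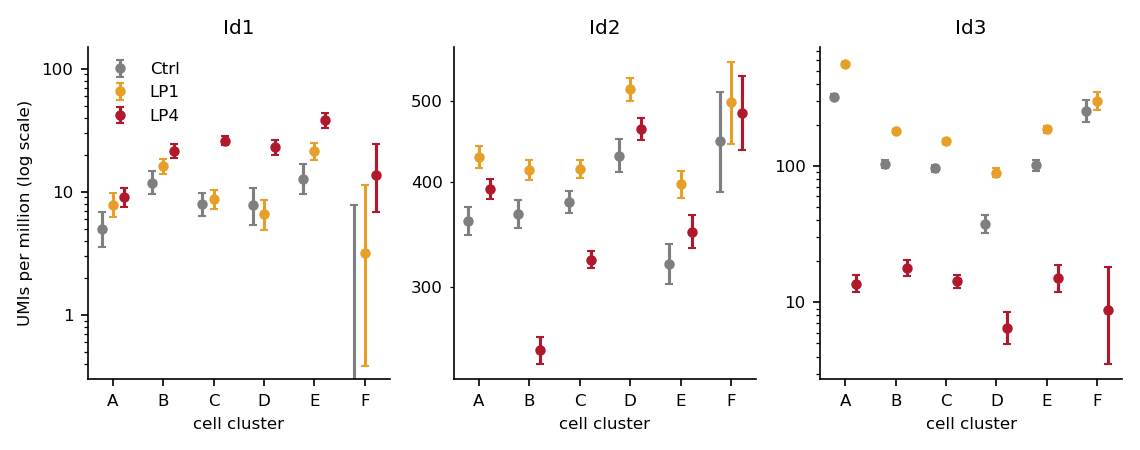
CPM of each member in clusters A to F, coloured by library, on log axes that differ between panels; points are 1 library each with 95% Poisson intervals. Id3 in LP4 (6.53 to 17.9 CPM) lies below Ctrl and LP1 in every cluster, Id1 is highest in LP4, and Id2 stays between 252 and 516 CPM. For Id1 in F, Ctrl has a count of 0 and only the upper part of its interval is drawn.

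Cells with an Id3 UMI were compared with cells without one inside each library, after thinning. In Ctrl the 5 genes furthest above in the 1429 cells with Id3 were Nr4a3 (log2 ratio 1.49), Gpr141 (1.27), Ccl3 (1.25), Cd86 (1.24) and Cd74 (1.24), and in the 1664 such cells of LP1 they were Ccl4, Egr3 (1.48), Ms4a4a (1.40), Ccl7 (1.37) and Cd86 (1.36). Nr4a3 and Egr3 are early response transcription factors, Ccl3, Ccl4 and Ccl7 are chemokines, and Cd86 and Cd74 serve antigen presentation. Of the immediate early genes listed, 16 of 16 were higher in cells with Id3 in both Ctrl (median 0.45) and LP1 (median 0.38), where the median of all genes was -0.03. The counting interval of Egr2 included 0 in both. Of 15 listed lipoprotein response genes, which span cytokine, interferon-stimulated and other genes, 11 of 12 measured were higher in both Ctrl and LP1. Their medians were 0.66 and 0.47, for example Il1b at 0.82 (0.74 to 0.90) in Ctrl and 0.91 (0.83 to 0.99) in LP1. Tnf was the exception, at -0.11 (-0.18 to -0.04) in Ctrl and -0.25 (-0.31 to -0.19) in LP1. In LP4 the counts over all cells were nearer to even. There 6 of 11 immediate early genes were higher (median 0.06, against 0.03 for all genes) and 9 of 15 lipoprotein response genes (median 0.10). Within macrophage-like cells of LP4 these were 8 of 11 (median 0.12) and 9 of 15 (median 0.08). Listed genes with no UMI in the cells with Id3 got no ratio and could not count as lower.

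The counts were lower within the cluster that holds most Id3. Within cluster A, itself led by Egr3 and Nr4a3, 8 of 16 immediate early genes were higher in Ctrl cells with Id3 (median -0.01) and 13 of 16 in LP1 (median 0.09). Within C, D and E, 13 or 14 of 16 were higher in Ctrl, with medians of 0.34 to 0.50, and 12 to 14 of 16 in LP1, with medians of 0.22 to 0.27. Within B it was 11 of 16 in Ctrl and 8 of 15 in LP1. Of the lipoprotein response genes, 8 of 12 were higher in Ctrl cells of A with Id3 (median 0.08) but 4 of 13 in LP1 (median -0.25). Within B it was 7 of 10 in Ctrl (median 0.05) and 5 of 12 in LP1 (median -0.10). In Ctrl, C had 11 of 11, D 8 of 10 and E 7 of 11 higher, with medians of 0.32 to 0.57. In LP1, C had 7 of 11, D 7 of 10 and E 8 of 12 higher, with medians of 0.19 to 0.46. In LP4, the immediate early genes higher with Id3 were 6 of 9 in A, 7 of 8 in B, 6 of 9 in C, 7 of 8 in D and 5 of 9 in E. Their medians were 0.16, 0.30, 0.31, 0.51 and 0.04, from only 39, 21, 30, 7 and 11 cells with Id3. A listed gene with no UMI in these few cells got no ratio and could not count as lower. The LP4 counts by cluster therefore lean towards higher and are not read as a link with Id3.

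**Figure D4:**
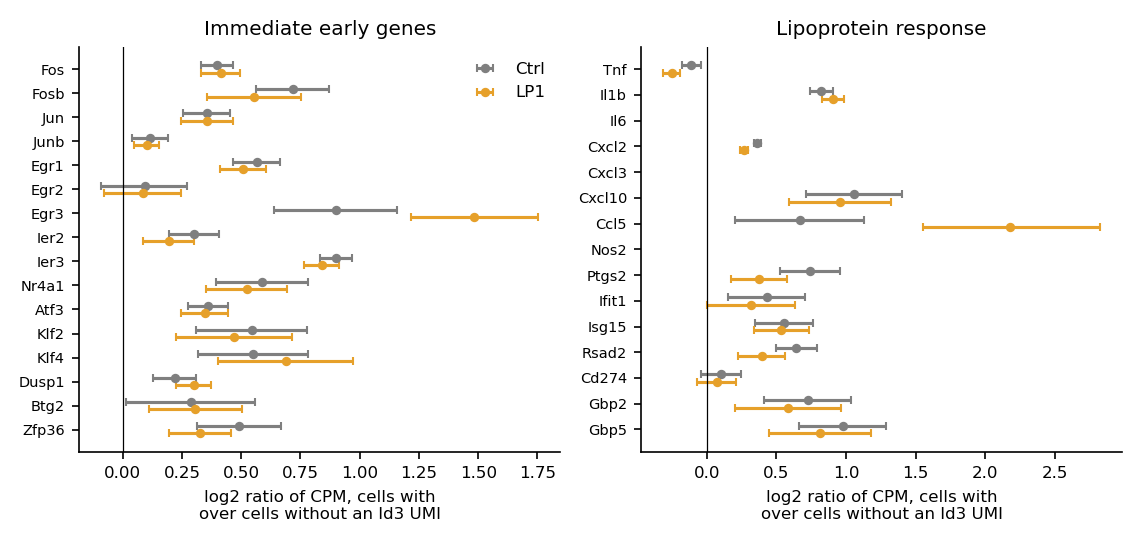
Log2 ratio of CPM between thinned cells with and without an Id3 UMI in Ctrl and LP1 for the listed immediate early and lipoprotein response genes with at least 10 CPM in either set. Bars are 95% counting intervals. The points of the 16 immediate early genes lie above 0 in both libraries, with the bars of Egr2 crossing it, and Tnf lies below 0 in both.

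In LP4, with 113 thinned cells holding Id3, Csmd1 (4.69) and Ly6a (3.04) led, followed by Urm1, Hcar2 and Lrba. Of the Csmd1 UMIs of LP4, 97.7% were in the 7 cells with collagen genes set apart by the finer clustering, and within macrophage-like cells Csmd1 was not among the leading 5. Cells with an Id1 UMI are described with the limit that the part of free RNA in their share was not settled. Most of the genes that led in cells with Id1 are neutrophil genes, although few of these cells were neutrophil-like. In Ctrl, LP1 and LP4, 2 of 111, 5 of 102 and 5 of 165 thinned cells with Id1 were neutrophil-like. The macrophage-like ones numbered 107, 95 and 156. In Ctrl the leading genes were Csmd1 (4.98), Lcn2 (3.74), Pglyrp1 (3.57), S100a9 (3.30) and S100a8 (3.24). In LP1 they were Chil3 (4.94), Csmd1 (4.56), Ngp (4.25), Mpo (4.11) and S100a9 (4.05), and in LP4 S100a9 (2.61), S100a8 (2.43), Lcn2 (2.23), Ngp (2.10) and Dach1 (1.65). Within macrophage-like cells alone none of the leading 5 was shared with these lists in any library, and the list became Hist1h4h, Ubxn2a, Cbx5, Asap2 and Cenpe in Ctrl, where each rested on 11 to 15 UMIs in the cells with Id1. In LP4, 15 of 15 lipoprotein response genes were lower in cells with Id1 (median -0.42), and likewise 15 of 15 within macrophage-like cells (median -0.39). In Ctrl 9 of 11 were lower (median -0.60) and in LP1 6 of 11 (median -0.04). For Id1 these counts were not taken within single clusters, which differed in their Id1 level. The 5 leading genes of Id2 had the smallest ratios, none over 0.62, and Atp6v0d2 and Mfge8, both high in cluster D, recurred among them. In LP4, 9 of 11 immediate early genes were higher in cells with Id2 (median 0.27, against 0.01 for all genes). In Ctrl and LP1 these were 7 and 9 of 16 (medians -0.05 and 0.04).

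Over 18 sums of 1 cluster in 1 library, the genes most like Id3 were Osbpl8 (Pearson r = 0.97), Nr4a1 (0.97), Pcf11 (0.96), Ankrd44 (0.96) and Trps1 (0.96). Those most like Id2 were Ifi30 (0.79), Grb2 (0.76), Creg1 (0.76), Atp6v1f (0.75) and Higd2a (0.74), and those most like Id1 were Cd300lf (0.93), Snrpc (0.91), Tma7 (0.91), Kpnb1 (0.90) and Ddi2 (0.89). The 18 sums come from 3 libraries and share their depth and treatment, so r describes likeness and nothing more. Nr4a1, an early response nuclear receptor, went from 78.0 CPM in Ctrl and 99.0 in LP1 to 1.87 in LP4.

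The early response genes as a list were low in LP4. Of 16 immediate early genes, 12 were lower by at least 1 on the log2 scale in LP4 over Ctrl and 1 (Zfp36) higher, with a median of -2.50 against -0.07 for all genes. Egr1 went from 287 and 315 CPM to 3.39 CPM, and Fosb from 125 and 77.9 to 1.47 CPM. Id3 at -3.27 lay between Jun (-3.15) and Klf2 (-3.71). In LP1 over Ctrl only Junb was past 1 (1.02), and the list's median was -0.03. Of 15 lipoprotein response genes, 13 were higher in LP4 over Ctrl, such as Nos2 at 8.92 and Rsad2 at 5.27, and Tnf (-1.58) and Cxcl2 (-1.56) were lower. The paper already reports many of these genes as higher in LP4. It also reports several early response genes, such as Egr1, Fos and Dusp1, and Id3 itself as lower there. Both lists were chosen with such results known, so neither count is an independent result.

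Of the 3 genes of the E proteins, the partners of the Id proteins, 1 was higher in LP4 by at least 1. Tcf4 had 184, 179 and 425 CPM, with LP4 at 1.21 over Ctrl (1.17 to 1.25). Tcf12 had 90.7, 92.0 and 119 CPM, and Tcf3 11.5, 16.0 and 13.5 CPM, neither past 1. The 3 Id genes together summed to 522, 677 and 387 CPM, and the 3 E proteins to 286, 287 and 557 CPM. Id UMIs per E-protein UMI were thus 1.82 (1.78 to 1.87), 2.36 (2.32 to 2.41) and 0.695 (0.684 to 0.707). The LP4 ratio was below that of Ctrl in each of clusters A to F, reaching 0.475 in B and 1.28 in D, against 1.70 and 2.28 in Ctrl. With Tcf4 left out it was 5.10, 6.27 and 2.93. The assay counts 3′ ends, so UMIs were not scaled by length, but reads inside introns can add UMIs to a long gene such as Tcf4, and whether they were counted is not given in the sources used here. The ratio is therefore read between libraries and not for its size.

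**Figure D5:**
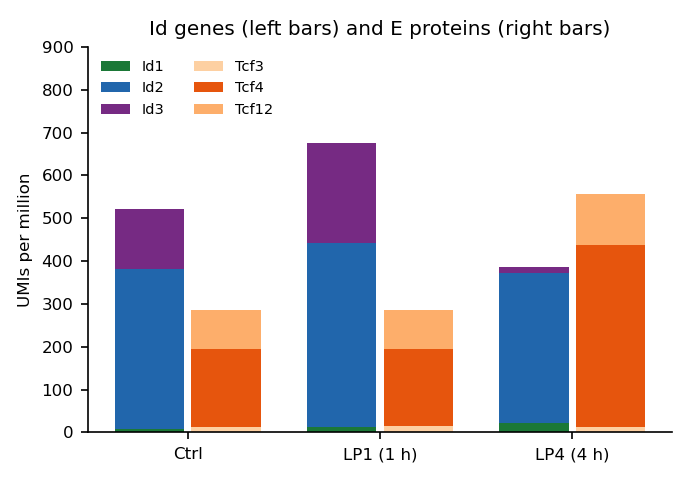
Summed CPM of Id1, Id2 and Id3 (left bar of each pair) and of Tcf3, Tcf4 and Tcf12 (right bar) in each library, without intervals. The Id bar is taller in Ctrl (522 against 286) and LP1 (677 against 287), and the E-protein bar in LP4 (387 against 557), where Tcf4 makes up most of it. With Tcf4 left out the Id sum is the larger in every library, at 5.10, 6.27 and 2.93 Id UMIs per E-protein UMI.

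The BMP and TGF-beta pathway upstream of the Id genes gave few differences in LP1. For LP1 over Ctrl none of the listed ligands, receptors, SMADs or inhibitors with enough UMIs lay past 1. For LP4 over Ctrl, 1 of 3 measured ligands of 9 listed was higher, Inhba, the activin A subunit, which went from 3.14 and 4.65 to 65.3 CPM (4.38). Tgfb1 was at -0.94. Bmp4 had no UMI in any library, and Bmp2 had at most 0.897 CPM. Of 9 measured receptors of 12 listed, Acvr1 (1.47) and Acvr1b (2.73) were higher and none lower, with Bmpr2 at 0.92 and Bmpr1a at 0.87. None of 4 measured SMADs of 6 was past 1, Smad1 being at 0.48 and Smad5 at 0.40. Among 7 measured inhibitors of 12, Pmepa1, a TGF-beta target that damps SMAD signalling, was higher (2.05), while Smad6, a BMP target like Id1, was at -0.17 and Smad7 at -0.50. Of the enzymes of Id turnover, Usp1, a deubiquitinase that stabilises Id proteins, was at -0.39 and Fzr1, an activator of the ubiquitin ligase that marks them, at 0.37.

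Other bHLH genes differed in both directions. Of 18 measured of 22 listed, 4 were higher in LP4 over Ctrl and 4 lower, with a median of -0.46. Mxd1 (2.65) and Max (1.21) of the Myc network, Hif1a (2.02) and Usf1 (1.97) were higher, and Lyl1 (-3.82), Bhlhe40 (-2.17), Tfeb (-2.03) and Mxd4 (-1.55) were lower. None of 17 measured was past 1 in LP1 over Ctrl. Of the cyclin-dependent kinase inhibitors, which E proteins can activate and Id proteins oppose, Cdkn2c was 1.11 above Ctrl in LP1 and 1.06 in LP4, from 6.75 CPM in Ctrl, and Cdkn1a was at 0.33 and -0.04. Markers of cycling cells summed to 630, 746 and 647 CPM. The part of these gene lists in the levels of the Id genes was not tested.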

How the data were processed

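The authors deposited a matrix of UMI counts per gene and barcode for each of 3 libraries. Per the labels and the study's methods these counts were made with Cell Ranger (7.1.0 in the submitters' processing notes) on mm10, as whole-number counts with no normalization. Barcodes with over 500 UMIs, over 500 genes and under 5% mitochondrial UMIs were kept. UMIs were summed per library and divided by its total (35688939 in Ctrl, 52475723 in LP1, 61402275 in LP4) to give CPM. Intervals were exact Poisson for CPM, exact conditional binomial for ratios and exact binomial (Clopper-Pearson) for shares. No count model or p-value was used, because each condition was 1 library. Ratios were read for genes with at least 10 CPM in 1 library of a pair.

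Cells were clustered with Leiden (scanpy 1.11.5, resolution 0.5, 30 components, 20 neighbours, 2000 variable genes, scaled within each library) and named from fixed markers. Doublet scores came from Scrublet in scanpy, whose automatic call found almost no doublets and was not used. Instead the 5% of cells with the highest score were left out as an alternative. TMM factors came from edgeR 4.0.16. Positions are from GENCODE vM21 and promoter sequences from RefSeq (GRCm38.p6). Steps were tested on simulated data.

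Named genes were the members and Id4, the 5 genes with the largest ratio between cells with and without a member (at least 50 CPM), the 5 with the highest Pearson correlation of log2(CPM + 1), and list genes. Egr1, Fosb and other list genes given as examples were picked after their values were seen, as were the counts of cells with many UMIs. The members and lists were chosen with earlier results of these data known.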

Additional observations from a re-analysis of the deposited data

Results flagged for a closer look

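Id2 in LP4 over Ctrl went against its value in all cells (-0.09) in 4 clusters whose own 95% counting interval lay on the other side of 0. The ratio was 0.13 in cluster A, 0.11 in D and 0.13 in E, all macrophage-like, and 1.33 in the neutrophil-like cluster G, where it rested on 61 UMIs in LP4 and 10 in Ctrl. These signs depend on the clustering. At resolution 0.8 the Egr3-led cluster stood at -0.12 (-0.24 to 0.003). Id2 was lower there in 5 of 7 compared clusters, against 2 of 6 at resolution 0.5. With 1 library per condition the difference between clusters was not tested, and the value in all cells itself turned positive under median-of-ratios scaling.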

How the results depend on the processing

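Of 90 recomputed log2 ratios of the members, 77 stayed inside the interval of the reported value, 12 moved outside it and 1 changed sign, with a largest shift of 0.39. Median-of-ratios scaling gave 1.56 for Id1 in LP4 over Ctrl, 0.29 for Id2 in LP1 over Ctrl, 0.12 (a changed sign) for Id2 in LP4 over Ctrl, -0.17 for Id2 in LP4 over LP1, and 0.81, -3.06 and -3.88 for Id3 in LP1 over Ctrl, LP4 over Ctrl and LP4 over LP1. TMM scaling gave -0.017 for Id2 in LP4 over Ctrl and -0.25 in LP4 over LP1. For Id3 in LP4 over Ctrl and LP4 over LP1, the mean over cells of a cell's share gave -3.57 and -4.31, and thinning to 2000 UMIs gave -3.66 and -4.38. Every barcode, a mitochondrial limit of 10%, macrophage-like cells alone, leaving out high doublet scores, leaving out mitochondrial and ribosomal protein genes from the total and, chosen after seeing the data, leaving out clusters G and H kept each ratio inside its interval.

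Shares of cells depend on depth by construction. In Ctrl, LP1 and LP4, thinning to 1000 UMIs gave 0.991%, 1.11% and 1.96% for Id1, 29.9%, 33.5% and 25.7% for Id2, and 13.6%, 20.4% and 1.25% for Id3. Thinning to 4000 UMIs gave 3.06%, 3.81% and 5.62% for Id1, 69.4%, 73.2% and 57.8% for Id2, and 31.9%, 45.7% and 4.50% for Id3. No thinning gave 4.38%, 7.96% and 12.7% for Id1, 74.7%, 89.3% and 79.5% for Id2, and 42.8%, 63.2% and 11.7% for Id3. At each of the 3 thinned depths the order of the libraries was the same for each member.

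The lowest ratio of Id1 over the clusters turned from -0.24 to 0.20 in LP1 over Ctrl at resolution 0.3, and from 0.85 to -0.24 in LP4 over Ctrl at resolution 0.8, with the cause not tested. The ratio of Id3 in LP4 over Ctrl within the Egr3-led cluster went from -4.55 to -3.88 at resolution 0.8. In 6 other cases of 24 the end of a range moved, with no change of sign. Among these, the lowest ratio of Id1 in LP1 over Ctrl went from -0.24 to -1.07 at resolution 0.8. Without the LP4 cell richest in Id3, the ratio of Id3 in cluster H went from 0.75 to -0.13, by the removal of 32 of 65 UMIs. With no filter other than 1 UMI in each library, 3.82% of genes were higher and 6.74% lower in LP1 over Ctrl, 18.9% lower in LP4 over Ctrl and 15.1% lower in LP4 over LP1. With a pseudocount of 5, 2 of the 5 genes most like Id1 remained, and 5 of 5 for Id2 and Id3. Comparisons of cells with and without a member in macrophage-like cells, or in single clusters, were chosen after seeing the data. No paired analysis was possible because each condition is 1 library. The 1-library design limits every statement: spread between cultures is unknown, and LP1, LP4 and Ctrl cannot be told apart from the libraries that hold them.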
